A study of Homo sapiens with 6 samples.

Results

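Keratins are the intermediate filament proteins of epithelial cells, and their transcripts were compared between a colorectal cancer line and a liver-metastatic subpopulation of it. The members are 10 keratin genes, taken as every probe set whose only gene symbol in the platform annotation is KRT7, KRT8, KRT10, KRT14, KRT15, KRT18, KRT19, KRT20, KRT23 or KRT80. They have 16 probe sets among the 54613 that are not controls, of which those with 1 symbol name 19775 genes. SW480 is an established human colorectal cancer cell line, and M5 is a subpopulation of SW480 obtained by selection in vivo for raised metastasis to liver. Both were grown in culture under one protocol with no treatment given, and each was measured on 3 Affymetrix arrays that the labels call biological replicates. Whether M5 comes from 1 clone or 1 host, and at what passage, the labels do not say. P-values here measure only the spread between these arrays.

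A keratin filament is built from pairs of a type I (acidic) and a type II (basic) chain, so each chain needs a partner of the other type. KRT8 with KRT18 is the pair of simple epithelia such as the gut lining, where KRT19 and KRT20 also occur. KRT14 and KRT15 belong to the basal layer of stratified epithelia, where the partner of KRT14 is KRT5, and KRT10 to the layers above it, where its partner is KRT1. KRT7 is a type II keratin of ducts and other simple epithelia, KRT80 a type II keratin of many epithelia, and KRT23 a type I keratin. Of the 10 members, 4 genes lie on chromosome 12 and 6 on chromosome 17 in RefSeq for GRCh38.p14. There KRT8 and KRT18 are next to each other, as are KRT7 and KRT80, KRT20 and KRT23, and KRT15 and KRT19, when coding genes alone are counted.

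The arrays differed in brightness and in how close they lay to one another. The 2% trimmed mean of the deposited signals was 21.1 on SW480 replicate 1 and 27.2 on M5 replicate 1, which are called the dimmer pair here, and 53.8 to 87.1 on the other 4 arrays. All signals below were quantile normalised across the arrays and are listed by replicate, from replicate 1 to replicate 3. M5 replicates 2 and 3 had r of 0.995 over 3277 bright probe sets, against 0.897 to 0.958 for the other pairs of arrays, so every mean and SD for M5 takes them together as a single sample (n = 2). SEs, intervals and p-values over 6 arrays take them as separate samples. SW480 replicate 1 lay closer to M5 replicate 1 (r of 0.955) than to either of the other SW480 arrays (r of 0.91 with each), and M5 replicate 1 had r of 0.935 and 0.933 with the other M5 arrays. An 18S ribosomal RNA control was high on SW480 replicates 1 and 2 and M5 replicate 1, at 2823.9 or above, and low on the other arrays, at 234.1 or below. Probe sets in the lowest 40% by mean signal were left out of the tests, which kept 13 keratin probe sets and at least 1 for each of the 10 genes.

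Over all 6 arrays no keratin passed the test, although KRT10, KRT14, KRT15 and KRT19 had higher mean signals in M5 with a limma p under 0.05 before adjustment. Of the 13 probe sets, 0 were higher and 0 lower in M5 at a limma adjusted p under 0.05, where 0.0397% of all kept probe sets were higher and 0.0336% lower. Before adjustment, 6 had a limma p under 0.05 with a higher mean in M5 and 0 with a lower one, against 4.82% and 5.44% of all kept probe sets. With M5 replicates 2 and 3 averaged, only 2 did, for KRT10 and KRT15, against 2.15% of all kept probe sets higher and 3.4% lower. The KRT10 probe set among them was not the brightest one, which had a limma p of 0.051 in the averaged fit. Limma adjusted p in that fit was 0.849 or above for all 13, and it called 0.0061% of all kept probe sets higher and 0.0214% lower. The groups did not overlap for 4 probe sets with M5 higher (7.23% of all) and for 1 with M5 lower (7.89% of all). The 13 include 3 probe sets of KRT10, which share a gene and are not independent. The log2 fold change was above 0 for 10 of the 13, against 49.2% of all kept probe sets, and its median was 0.67 against -0.01. The members were chosen with earlier results of these data known, so a shift of keratins as a family was not tested by these counts. The plot of keratin signals on each array shows the values behind these counts.

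**Figure D1:**
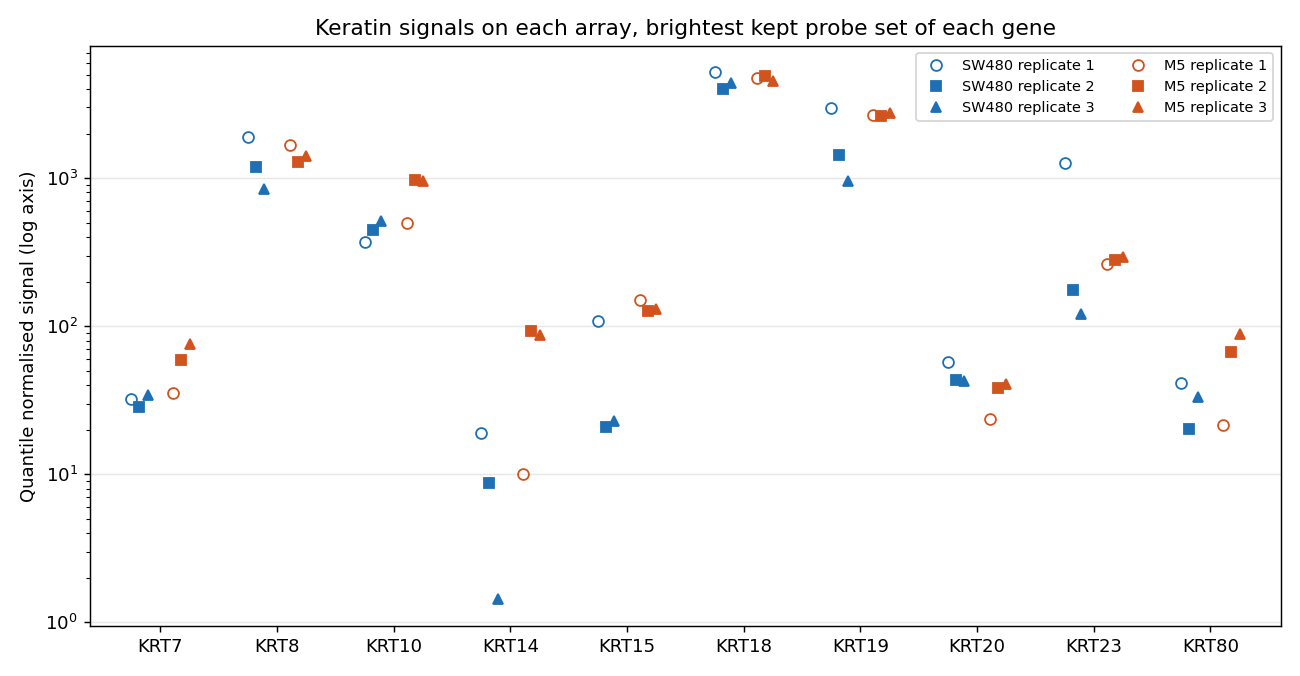
Quantile normalised signal (log axis) of each keratin gene's brightest kept probe set on each of the 3 SW480 arrays (blue) and 3 M5 arrays (orange). Open circles are replicate 1, the dimmer pair. KRT18 sits between 4022 and 5185 on every array, while KRT14 reaches 92.1 and 86.6 on M5 replicates 2 and 3 and lies at 19.1 or below elsewhere.

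The pair of simple epithelia had high signals in both populations. KRT18, the type I chain, had signals of 5185, 4022 and 4406 in the SW480 replicates and of 4730.1, 4873 and 4523 in the M5 replicates. These groups overlapped. The log2 fold change of KRT18 was 0.06 (SE 0.13, with an adjusted p of 0.909 in limma), with a 95% confidence interval of -0.22 to 0.35 (intervals are not adjusted for the number of probe sets). KRT8, its type II partner, had signals of 1897, 1194 and 846 in the SW480 replicates and 1665, 1275 and 1411 in the M5 replicates. The KRT8 groups overlapped too, with SW480 replicate 1 the highest array of all. Its log2 fold change was 0.21 (SE 0.25, with an adjusted p of 0.817 in limma), with an interval of -0.34 to 0.77. The only kept probe set of each gene is one that the array maker marks as possibly matching other sequences, so signal from related transcripts or pseudogenes cannot be told apart from theirs. The same mark is on 2 of the 3 KRT10 probe sets.

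KRT19, a type I keratin of simple epithelia that lacks most of the usual tail domain, had signals of 2956, 1433 and 956 in the SW480 replicates and 2659.7, 2647 and 2751 in the M5 replicates. The 3 M5 arrays lay close together, and SW480 replicates 2 and 3 lay below them while SW480 replicate 1 lay above. The mean was 1782 ± 1045 (SD, n = 3) for SW480, while M5 averaged 2679 ± 27.8 (SD, n = 2). Over the 6 arrays the log2 fold change was 0.75 (SE 0.31, with an adjusted p of 0.455 in limma), and with M5 replicates 2 and 3 averaged it was 0.75 too (SE 0.36, with an adjusted p of 0.897 in limma). It ran from 0.39 (limma adjusted p = 0.72) without SW480 replicate 3 to 1.19 (limma adjusted p = 0.0251) without SW480 replicate 1. A second KRT19 probe set was left out by the filter, with signals of 44.6 on SW480 replicate 1 and at most 5.73 on every other array.

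KRT20, the type I keratin of differentiated intestinal epithelium, was the only member whose groups did not overlap with M5 the lower. The normalised signals were 57.5, 43.4 and 42.8 in the SW480 replicates and 23.7, 38.2 and 40.6 in the M5 replicates. The gap was narrow on replicates 2 and 3, and M5 replicate 1 was the lowest. The log2 fold change of KRT20 was -0.49 (SE 0.34, with an adjusted p of 0.655 in limma), and it was -1.22 on the dimmer pair against -0.12 on the 4 brighter arrays. Without M5 replicate 1 it was -0.26. KRT7 had 4 probe sets, of which 2 were kept. The brighter had signals of 32.4, 28.4 and 34.3 in the SW480 replicates and 35.3, 59.5 and 76.2 in the M5 replicates. The groups did not overlap, but M5 replicate 1 lay just above the highest SW480 array. Its log2 fold change was 0.75 (SE 0.35, with an adjusted p of 0.5 in limma). The other kept KRT7 probe set had signals of 44.9, 13.4 and 16.7 against 23.9, 26.6 and 15.3 and a log2 fold change of -0.02 (SE 0.49, with an adjusted p of 0.99 in limma), so the KRT7 probe sets disagreed. With the mean of both in place of the brighter, the log2 fold change of KRT7 was 0.36 (limma adjusted p = 0.728).

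KRT10, a type I keratin of the upper layers of skin, had the most probe sets kept, and the 3 ran alike. The brightest had signals of 369, 446 and 517 in the SW480 replicates and 501, 972 and 959.7 in the M5 replicates. M5 replicates 2 and 3 were the highest arrays, and M5 replicate 1 lay among the SW480 arrays. This probe set had a log2 fold change of 0.82 (SE 0.26, with an adjusted p of 0.366 in limma), with an interval of 0.24 to 1.39, and 0.66 (SE 0.30, with an adjusted p of 0.897 in limma) with M5 replicates 2 and 3 averaged. The other KRT10 probe sets had log2 fold changes of 0.58 and 0.67 (limma adjusted p = 0.436 and 0.305), and in both the M5 arrays lay above all SW480 arrays. In the first of these the margin was small, with 465 on M5 replicate 1 against 463 on SW480 replicate 3. KRT10-AS1, an antisense gene named for KRT10, had a log2 fold change of 0.12 (SE 0.26, with an adjusted p of 0.914 in limma). KRT1, the usual type II partner of KRT10, was left out by the filter, with a signal of at most 8 on any array.

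**Figure D2:**
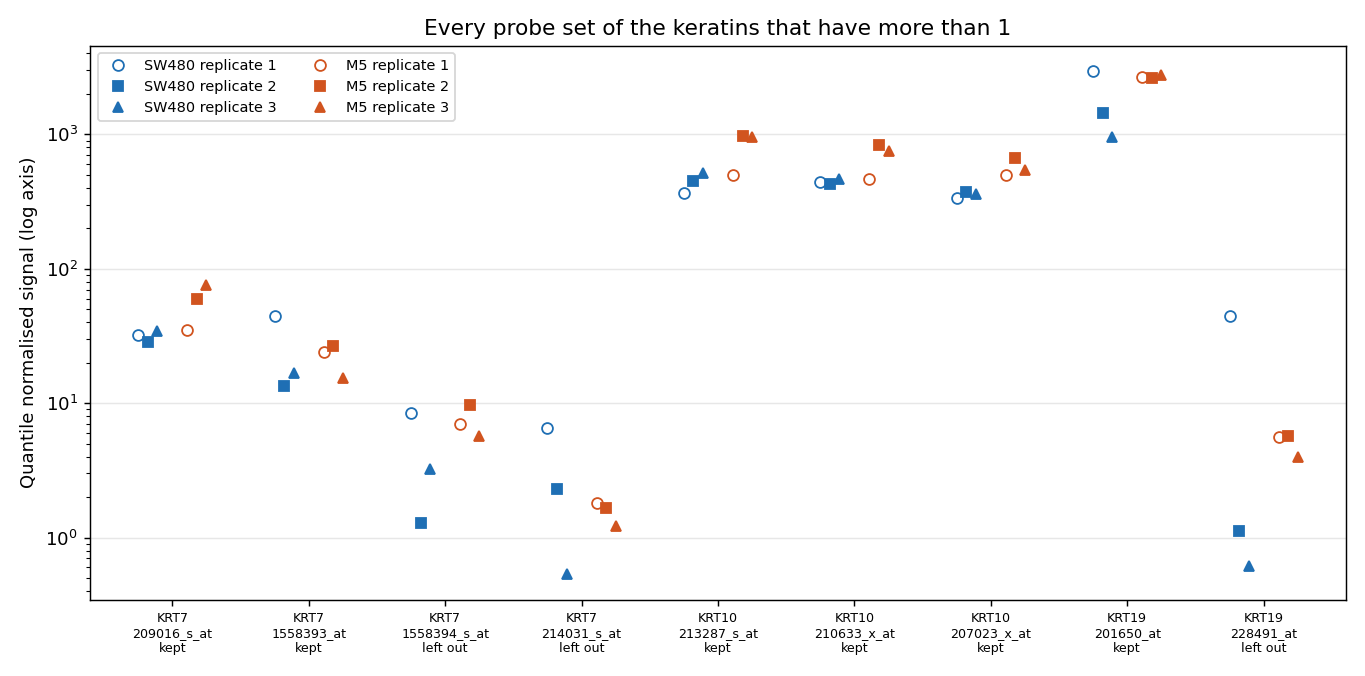
Quantile normalised signal (log axis) of every probe set of KRT7, KRT10 and KRT19, the members with more than 1, on each SW480 array (blue) and M5 array (orange). The 3 KRT10 probe sets run alike between 336 and 972, while the 4 KRT7 probe sets differ in their order of arrays.

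The set of RefSeq promoter windows used here (GRCh38.p14) held one for 3 of the 10 members, KRT8, KRT10 and KRT20. Those of KRT10 and KRT20 are printed because the groups lay apart in opposite directions, for KRT20 and for 2 of the 3 KRT10 probe sets. Neither gene was called over the 6 arrays. Of the 13 keratin probe sets, 1 lay apart with M5 lower, near the 7.89% of all kept probe sets. With M5 higher it was 4, against 7.23%. Each runs from 250 bases before the gene's start to 50 bases after it, and capitals mark matches on either strand to 4 motifs. These are the TATA box (TATAAA), the CAAT box (searched as CCAAT), the GC box (searched as GGGCGG) and the AP-1 site (searched as TGANTCA), and no match of one overlapped a match of another.
KRT10 promoter, chr17:40822565-40822864, minus strand: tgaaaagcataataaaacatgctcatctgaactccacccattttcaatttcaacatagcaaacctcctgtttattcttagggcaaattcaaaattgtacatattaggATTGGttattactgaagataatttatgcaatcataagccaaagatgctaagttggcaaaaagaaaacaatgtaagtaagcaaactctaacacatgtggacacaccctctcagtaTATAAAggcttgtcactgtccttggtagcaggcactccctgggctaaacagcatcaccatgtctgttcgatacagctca
KRT20 promoter, chr17:40885193-40885492, minus strand: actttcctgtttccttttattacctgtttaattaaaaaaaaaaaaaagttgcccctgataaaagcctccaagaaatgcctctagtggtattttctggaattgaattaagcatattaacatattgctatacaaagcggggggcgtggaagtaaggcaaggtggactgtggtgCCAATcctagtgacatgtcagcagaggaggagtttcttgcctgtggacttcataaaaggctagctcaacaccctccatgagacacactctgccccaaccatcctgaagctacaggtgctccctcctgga
In KRT10 the TATAAA match begins 29 bases before the start, and a CCAAT match on the opposite strand lies 143 bases before it. In KRT20 a CCAAT match begins 79 bases before the start. None of the 3 windows matched the GC box or the AP-1 site, and the KRT8 window matched none of the 4. Of 34943 promoter windows of this length, 11.6% hold the TATA box, 34.6% the CAAT box, 44.9% the GC box and 7.72% the AP-1 site. A match describes the letters and is no evidence of binding.

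KRT14 and KRT15, keratins of the basal layer, had the largest log2 fold changes of the 10 members over the 6 arrays. KRT15, a type I keratin of basal cells, had signals of 108.8, 21 and 23 in the SW480 replicates and 150.7, 127 and 131 in the M5 replicates. Every M5 array lay above every SW480 array, although SW480 replicate 1 was far above the other SW480 arrays. The mean was 50.9 ± 50.1 (SD, n = 3) for SW480, while M5 averaged 139.8 ± 15.4 (SD, n = 2). Over the 6 arrays KRT15 had a log2 fold change of 1.80 (SE 0.51, with an adjusted p of 0.315 in limma) with an interval of 0.67 to 2.92, and with M5 replicates 2 and 3 averaged one of 1.83 (SE 0.60, with an adjusted p of 0.849 in limma). KRT14, the basal type I keratin, had signals of 19.1, 8.72 and 1.43 in the SW480 replicates and 9.97, 92.1 and 86.6 in the M5 replicates. M5 replicates 2 and 3 were high, and M5 replicate 1 lay among the SW480 arrays. As deposited, before any scaling, the M5 signals of KRT14 were 6.6, 107.2 and 102.4 and the SW480 signals 9.7, 8.5 and 1.7, the last at the pseudocount of 1.7. The log2 fold change of KRT14 was 2.38 (SE 0.85, with an adjusted p of 0.403 in limma), and with low signals in SW480 it sets no firm fold. With M5 replicates 2 and 3 averaged it was 1.89 (SE 0.94, with an adjusted p of 0.897 in limma), and it ran from 1.58 without SW480 replicate 3 to 3.43 without M5 replicate 1. KRT5, the type II partner of KRT14, had signals of 44.2, 12.1 and 15.5 against 10.1, 13.7 and 7.45 and a log2 fold change of -0.90 (SE 0.54, with an adjusted p of 0.605 in limma).

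KRT23 had one array far from the rest. The normalised signals were 1267, 177 and 121 in the SW480 replicates and 262, 279 and 291 in the M5 replicates. SW480 replicate 1 was the highest and the other SW480 arrays were the lowest of the 6. As deposited, SW480 replicate 1 still gave the highest KRT23 signal, 454.1, although it was the dimmest array. KRT23 had a log2 fold change of -0.12 (SE 0.65, with an adjusted p of 0.97 in limma), and it was 0.92 (limma adjusted p = 0.147) without SW480 replicate 1. KRT80 had signals of 41.6, 20.1 and 33.4 in the SW480 replicates and 21.4, 66.5 and 89.1 in the M5 replicates. M5 replicates 2 and 3 were the highest, and M5 replicate 1 fell among the SW480 arrays. Its log2 fold change was 0.70 (SE 0.50, with an adjusted p of 0.669 in limma). It was 1.31 without M5 replicate 1, 0.43 without SW480 replicate 2, 0.30 without M5 replicate 3 and 0.41 with M5 replicates 2 and 3 averaged (limma adjusted p = 0.142, 0.894, 0.958 and 0.959).

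The keratin values thus differed between the dimmer pair and the other arrays. On the 4 brighter arrays alone, limma called 9 of the 13 keratin probe sets higher in M5 and 0 lower, where it called 3.64% of all kept probe sets higher and 4.21% lower. The genes called were KRT7, KRT10, KRT14, KRT15, KRT19, KRT23 and KRT80, with all 3 probe sets of KRT10. Their log2 fold changes in this fit, for which these arrays were normalised without the dimmer pair, were 1.1 for KRT7, 1 for the brightest KRT10 probe set, 4.18 for KRT14, 2.53 for KRT15, 1.19 for KRT19, 0.97 for KRT23 and 1.55 for KRT80. Limma adjusted p lay between 0.00131 for KRT15 and 0.0461 for KRT7. KRT8, KRT18 and KRT20 were not called on these arrays (limma adjusted p = 0.184, 0.426 and 0.814). M5 replicates 2 and 3 count as 1 sample here, so this fit treats as 2 samples what may be 1. With those arrays averaged, limma called only KRT14 (adjusted p = 0.0222) and KRT15 (adjusted p = 0.0115). Over all kept probe sets 0.525% were then called higher and 0.906% lower. That fit takes its spread from SW480 replicates 2 and 3 only and assumes the same spread for the single remaining M5 sample. Leaving out only SW480 replicate 1, limma called KRT15 (log2 fold change 2.57, adjusted p = 0.00514) and KRT19 (1.19, adjusted p = 0.0251) higher, with 0.363% of all kept probe sets higher and 0.168% lower. KRT19 was at 0.39 (adjusted p = 0.72 in limma) without SW480 replicate 3 instead. Leaving out only M5 replicate 1, it called the brightest KRT10 probe set higher (1.13, adjusted p = 0.0364), with 0.504% higher and 0.647% lower over all. No keratin probe set was called lower in any of these fits.

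On the dimmer pair most of these genes did not have the higher signal in M5. With all 6 arrays normalised together, the M5 minus SW480 difference in log2 signal was above 0 there for KRT7 (0.12), KRT10 (0.44) and KRT15 (0.46) and below 0 for the other 7 genes. It was -0.83 for KRT14, -0.15 for KRT19, -0.90 for KRT80 and -2.27 for KRT23. Over the brightest probe sets of the 10 genes, the median difference was -0.17 on the dimmer pair and 1.04 on the brighter arrays, against 0.01 and 0 over all kept probe sets. There is 1 array of each population in the dimmer pair, so its values carry no replicate check. The plot of M5 minus SW480 differences sets both beside the fit over 6 arrays.

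**Figure D3:**
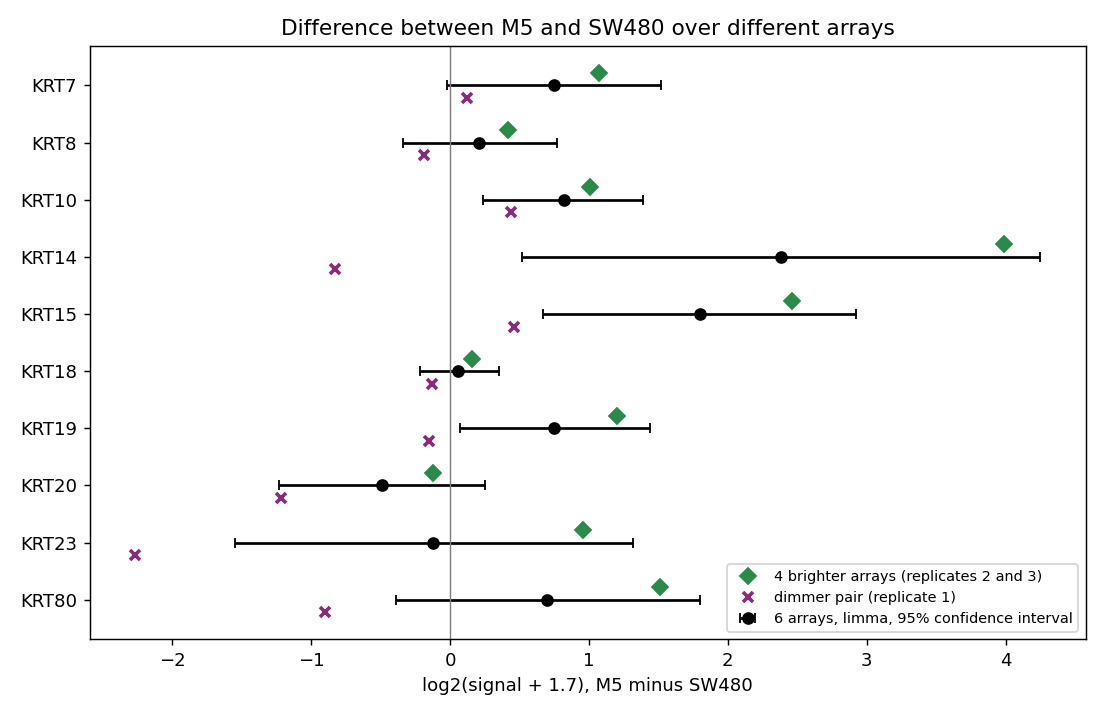
M5 minus SW480 difference in log2(signal + 1.7) for each keratin gene's brightest kept probe set. Black points with bars are the limma estimate over 6 arrays with its 95% confidence interval, green diamonds the 4 brighter arrays and purple crosses the dimmer pair. Differences are of signals normalised over all 6 arrays, so KRT14 lies at 3.99 on the brighter arrays, where the fit on those arrays alone gave 4.18, and at -0.83 on the dimmer pair, and KRT18 stays within 0.16 of 0 in all.

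The 2 dimmer arrays departed from their own populations mostly in different keratins. SW480 replicate 1 was at least 1 log2 unit above the mean of SW480 replicates 2 and 3 for KRT14 (1.86), KRT15 (2.22), KRT19 (1.34), KRT23 (3.10) and the second kept KRT7 probe set (1.48). That made 5 of 13 keratin probe sets, against 11.1% of all kept probe sets, and 0 were as far below, against 13.5%. M5 replicate 1 was at least 1 unit below the mean of M5 replicates 2 and 3 for KRT14 (-2.96) and KRT80 (-1.77). That made 2 of 13 keratin probe sets, near the share of 13.3% over all kept probe sets. It was -0.95 for the brightest KRT10 probe set and -0.90 for KRT7, just inside that limit. KRT15, KRT19 and KRT23 thus varied among the SW480 arrays and little among the M5 arrays, KRT80 varied more among the M5 arrays, and KRT14 varied in both.

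**Figure D4:**
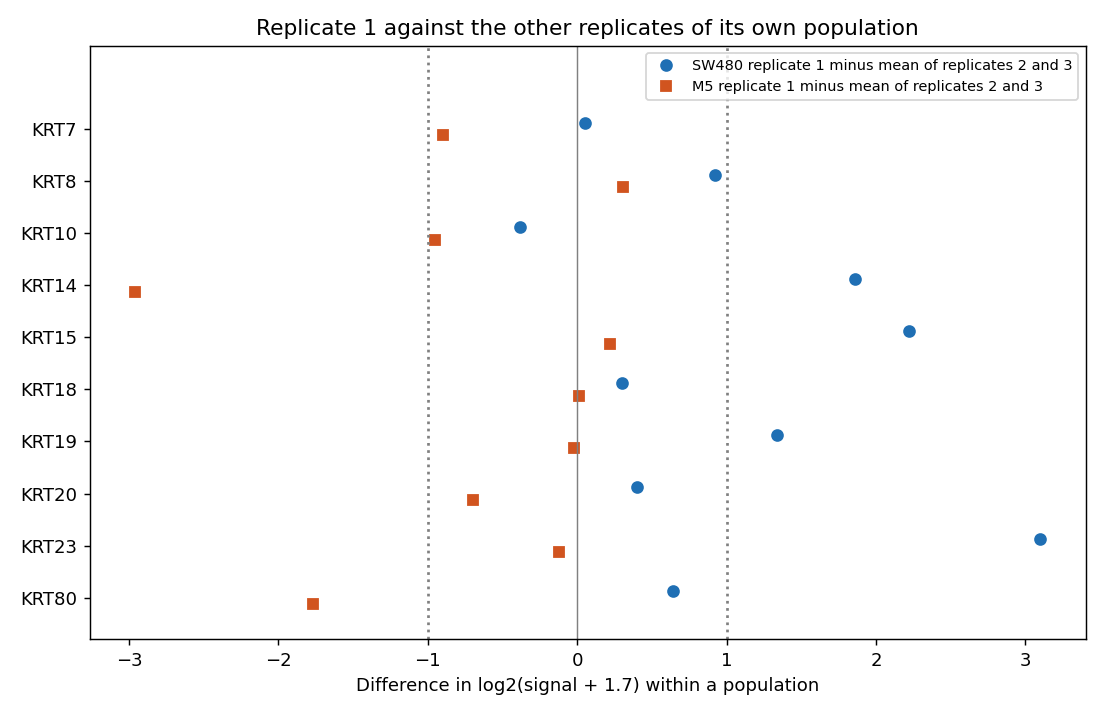
Difference in log2(signal + 1.7) between replicate 1 and the mean of replicates 2 and 3 of the same population, for SW480 (blue circles) and M5 (orange squares), with dotted lines at 1 unit either side of 0. KRT23 (3.10) and KRT15 (2.22) lie farthest right for SW480, and KRT14 (-2.96) and KRT80 (-1.77) farthest left for M5.

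The 18S control split the arrays another way. Within the arrays of high 18S signal, which hold only 1 M5 array, the M5 minus SW480 difference in log2 signal was 1.60 for KRT15, 0.37 for KRT19, 0.30 for KRT10 and -0.33 for KRT14. Within those of low 18S signal, which hold only 1 SW480 array, it was 2.4, 1.5, 0.9 and 4.86 in the same order. KRT23 went from -0.85 to 1.23 and KRT80 from -0.41 to 1.17 between these sets. The part of brightness or of the 18S control in the keratin values was not tested.

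The list of other keratins, 38 genes with 1 symbol that starts with KRT and a number, was mostly at low signal. It was taken by name and so includes pseudogenes and the antisense gene KRT10-AS1. Only 12 of the 38 were kept, KRT10-AS1 and the pseudogene KRT8P12 among them, and 0 were higher and 0 lower by limma adjusted p. Before adjustment 3 of the 12 had a limma p under 0.05 with a higher mean in M5, against 4.82% of all kept probe sets. The median log2 fold change of the 12 was 0.50, against -0.01 over all kept probe sets. The 3 genes were KRT16, a type I keratin of stressed epithelium, KRT85, a hair keratin, and the pseudogene KRT8P12. KRT16 had signals of 5.52, 0.467 and 0.45 in the SW480 replicates and 15.4, 15.4 and 22.9 in the M5 replicates. Every M5 array was above every SW480 array, but 2 of the 3 SW480 signals lay below the pseudocount, and limma adjusted p was 0.305. KRT85 likewise had SW480 signals of 0.483, 1.6 and 5.6, of which 2 lay below the pseudocount, against 13, 11.2 and 11.4 in M5, so no fold is given for KRT16 or KRT85 (limma adjusted p = 0.42 for KRT85). Both passed the filter only through their M5 signals. The count of 3 and the median of 0.50 include them and so partly follow from the filter. KRT8P12 had signals of 5.68, 27.1 and 20.8 against 44.7, 44.5 and 30.7 and a log2 fold change of 1.29 (limma adjusted p = 0.443). KRT222, the only gene of this list beside KRT10-AS1 with a mean above the median of kept probe sets, had a log2 fold change of 0.35 (SE 0.37, with an adjusted p of 0.797 in limma).

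A list of genes for keratin binding, crosslinking and related proteins gave no call. Of 25 listed genes 24 were kept, and 0 were higher and 0 lower by limma adjusted p. Before adjustment 1 with a higher and 2 with a lower mean in M5 had a limma p under 0.05. The shares over all kept probe sets were 4.82% and 5.44%. The median log2 fold change of those kept was -0.12, against -0.01 over all kept probe sets. PKP4, a plakophilin of cell junctions, had one of -0.89, the cytoskeletal linker MACF1 one of -0.77 and the plakin PLEC one of 0.79, with limma adjusted p of 0.32, 0.347 and 0.455. Other intermediate filament genes gave no call either, with 10 of 16 kept, a median log2 fold change of 0.14, 0 higher and 0 lower, and 1 gene at a limma p under 0.05 before adjustment. That gene was SYNM, which encodes synemin, with a log2 fold change of -1.99 (SE 0.51, with an adjusted p of 0.288 in limma). Its signals were 33.2, 27.2 and 31.6 in the SW480 replicates and 3.45, 4.77 and 14.2 in the M5 replicates. With such low signals in M5 it sets no firm fold. LMNB1 and LMNA, genes of nuclear lamins, had -0.51 and 0.52 (limma adjusted p = 0.571 and 0.603).

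Among 34 listed transcription factors known to act on keratin genes in some epithelia, 27 were kept with a median log2 fold change of 0. Limma called 1 lower and 0 higher, where it called 0.0336% and 0.0397% of all kept probe sets. Before adjustment 3 with a higher and 2 with a lower mean in M5 had a limma p under 0.05. Over all kept probe sets these shares were 4.82% and 5.44%. EHF, an epithelial ETS factor, fell by 4.75 on the log2 scale (SE 0.38, with an adjusted p of 0.00123 in limma). ELF3, another epithelial ETS factor, had a log2 fold change of 1.46 (SE 0.26, with an adjusted p of 0.0933 in limma). ETS1 had signals of 112.4, 19.4 and 41.7 in the SW480 replicates and 112.0, 176.5 and 167.9 in the M5 replicates, a log2 fold change of 1.68 (SE 0.50, with an adjusted p of 0.334 in limma). SW480 replicate 1 thus lay above the other SW480 arrays for ETS1. It was at least 1 log2 unit above the mean of SW480 replicates 2 and 3 for 6 of the 27 kept factors. The share over all kept probe sets was 11.1%. The cornified envelope and keratinocyte list had 9 of 20 genes kept and a median log2 fold change of 0.38, with 0 higher and 0 lower by limma adjusted p. Before adjustment 2 with a higher and 1 with a lower mean in M5 had a limma p under 0.05, against the same shares over all. CSTA, a protease inhibitor gene, had a log2 fold change of -1.49, KLK7, a protease gene, one of 1 and ANXA1, an annexin gene, one of 0.38, with limma adjusted p of 0.167, 0.378 and 0.451.

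The labelled cell type was checked against marker genes. Of 12 markers of colorectal epithelium 9 were kept, and the summed signal of all 12 was 9135 to 13084 on SW480 arrays and 11364 to 12325 on M5 arrays. That list holds 4 of the members, KRT8, KRT18, KRT19 and KRT20, and without them the sum was 2484 to 2989 on SW480 arrays and 2639 to 3247 on M5 arrays. Among its 3 genes with the lowest p, CEACAM5, an adhesion gene and the only one that is no member, had a log2 fold change of 0.98 (limma adjusted p = 0.569). EPCAM had signals of 2176 to 2923 and CDH1 of 262 to 390.2 over the 6 arrays, with log2 fold changes of 0.07 and 0.05 (limma adjusted p = 0.907 and 0.965). Nearly all of the sum without the members came from EPCAM and CDH1. The other kept markers of the list that are no members, CEACAM5, VIL1 and LGALS4, reached at most 14.4, 17 and 66.4 on any array. CDX2, CDH17 and GPA33, markers of intestinal differentiation, were left out by the filter, with signals of at most 13.4 on any array. Markers of squamous or basal epithelium had 5 of 9 genes matched and 3 kept, with DSG3 and IVL left out by the filter. TP63, KRT6A, KRT17 and COL17A1 found no probe set with 1 symbol, so they could not be checked. The sum over those matched was 2619.8 to 4231 on SW480 arrays and 3471.5 to 4986 on M5 arrays, nearly all of it from SFN, which encodes stratifin, at 2597 to 4959 (log2 fold change 0.34, limma adjusted p = 0.6). The other 4 matched genes, which include the member KRT14, lay at 92.1 or below on every array. The sums that follow are over all matched markers of a list. Hepatocyte markers, 6 of 10 kept, ran from 189 to 369 on SW480 arrays and from 155 to 649.7 on M5 arrays, with ALB left out by the filter. TTR, which encodes transthyretin, had signals of 5.17, 1.67 and 1.43 in the SW480 replicates and 195.7, 73.1 and 5.68 in the M5 replicates (limma adjusted p = 0.307), and FGB, a fibrinogen gene, 11, 3.22 and 1.67 against 201.9, 23.8 and 9.33 (limma adjusted p = 0.39). Both were highest on M5 replicate 1, one of the dimmer pair, where the sum was highest too. CPS1, a urea cycle gene, had a log2 fold change of -0.42 (limma adjusted p = 0.734). Fibroblast markers, 7 of 8 kept, summed to 241 to 374 and 185 to 250. COL3A1, a collagen gene, had signals of 222.8, 104.3 and 168 against 81.2, 66.5 and 45, with no overlap and a log2 fold change of -1.31 (limma adjusted p = 0.288), and DCN and THY1 had 0.63 and 0.54 (limma adjusted p = 0.809 and 0.811). Leukocyte markers, 4 of 7 kept, summed to 41.6 to 82 and 42.7 to 73.9, and CSF1R, CD3E and CD79A had log2 fold changes of -0.57, 0.62 and 0.30 (limma adjusted p = 0.821, 0.846 and 0.862). Endothelial markers, 1 of 5 kept, summed to 15 to 38 and 22.4 to 35.9, and PECAM1 had a log2 fold change of -0.59 (limma adjusted p = 0.753). The part of other cell types in the keratin values was not tested, and fewer cells of a type and less RNA per cell cannot be told apart in such samples.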

How the data were processed

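Total RNA of SW480 and M5 was measured on 6 Affymetrix arrays, 3 per population. The authors deposited intensities, 1 per probe set and array and not on a log scale. GCOS 1.4 is listed as the tool, per the submitters' processing notes. Settings, scaling target and build were not given in the sources used here. Precision is limited by the small number of arrays.

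The 62 control probe sets were left out. Arrays were quantile normalised because their trimmed means differed by up to 4.12 times, and log2(signal + 1.7) was taken with the 20th percentile of the deposited intensities as pseudocount. On this scale a difference between low signals is understated. Probe sets in the lowest 40% by mean were dropped, which kept 32768. M5 was compared with SW480 in limma 3.58.1 (R 4.3.3, lmFit and eBayes with an intensity trend), two-sided, with Benjamini-Hochberg adjustment over all kept probe sets and a threshold of 0.05. The scripts were tested on simulated data. A gene was given by its brightest kept probe set. Probe sets were named from the platform annotation (41091 with 1 symbol, 1801 with several, 11721 with none), and only those with 1 symbol were used. All 10 members were named, and in each list every gene past the threshold and up to 3 with the lowest p. Of the list symbols, 8 found no probe set with 1 symbol. The members, lists and alternatives were chosen with earlier results of these data known. Alternatives used other scalings, pseudocounts (0.425 and 6.8) and filters (none and 60%), no intensity trend, a replicate block, an 18S control block, the probe set per gene and the arrays used. Promoter windows came from RefSeq (GRCh38.p14). Figures were drawn with matplotlib 3.10.9.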

Additional observations from a re-analysis of the deposited data

How the results depend on the processing

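Over 6 arrays 0 keratin probe sets were higher and 0 lower in M5, and 10 of the 13 had a log2 fold change above 0. Without the dimmer pair 9 were higher, a number that became 2 when M5 replicates 2 and 3 were averaged too. Leaving out 1 array in turn gave 0 to 2 higher and 0 lower: KRT15 and KRT19 without SW480 replicate 1, KRT10 without M5 replicate 1. Every other alternative gave 0 in both directions. Limma without trend gave 0 higher and 1 lower over all probe sets, so its keratin count says nothing about stability. Each alternative with 0 keratin calls in both directions called at most 0.0549% of all tested probe sets in either direction. Without M5 replicate 2, for example, limma called 1 higher and 4 lower over all. These counts of 0 thus say little about stability either. KRT23 turned to 0.97 without the dimmer pair (0.97 when M5 replicates 2 and 3 were averaged too) and to 0.19 with the 18S control block. Over single arrays left out it ran from -0.78 to 0.92, KRT8 from -0.07 to 0.52 and KRT18 from -0.02 to 0.16. The other 7 genes kept their sign under all 19 alternatives. Whether the replicate numbers mark pairs was not settled. Arrays of equal number deviated from their groups with correlations of 0.11, 0.02 and 0.07 over all kept probe sets, and unequal numbers were not compared. Over the bright probe sets SW480 replicate 1 had r of 0.955 with M5 replicate 1 and 0.91 with each other SW480 array. With the replicate block limma called 0 keratin probe sets higher and 0 lower. The table holds no detection calls, so whether low signals such as KRT14 in SW480 lie above background is unknown.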
